A study of Mus musculus with 3 samples.

Results

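The nuclear genes of oxidative phosphorylation were examined in H3K27ac ChIP-seq peak lists from MIN6, a line grown from a mouse insulinoma that serves as a model of the insulin-secreting pancreatic beta cell. Members were the protein-coding genes of GRCm38.p6 whose symbols begin with Nduf, Uqcr or Atp5, together with Sdha to Sdhd and the Cox4 to Cox8 subunit genes. This gave 96 genes of 21883 nuclear protein-coding genes. There were 3 libraries, 1 per genotype: a homozygous Arid1a knockout, a heterozygous Arid1a knockout and a wild type. Arid1a encodes a DNA-binding component of the SWI/SNF chromatin remodeller, and the series concerns its loss in beta cell regeneration and EGF signalling. Per the labels, all 3 derive from cells that carried lentiviral Cas9 and an Arid1a guide, and clones grown from single cells were sorted into the 3 genotypes by PCR genotyping and Western blotting. Each genotype therefore cannot be told apart from its clone, there are no replicates, and no difference below carries a test or a p-value.

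Oxidative phosphorylation passes electrons from NADH and succinate through respiratory complexes I to IV of the mitochondrial inner membrane, and the proton gradient so built drives ATP synthase, complex V. In beta cells the ATP made this way from glucose closes potassium channels and starts insulin secretion. Most subunits are encoded in the nucleus and imported, while a few core subunits are encoded in mitochondrial DNA, which is not covered here. H3K27ac is an acetylated histone found at active promoters and enhancers, so that its peaks show which of these genes carry an active promoter mark.

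The homozygous list held 34298 peaks, the heterozygous list 31365 and the wild-type list 41490. The median peak width was 489 bp in the homozygous, 474 bp in the heterozygous and 509 bp in the wild-type list. The lowest recovered background, used as a measure of relative depth, was 1.73 reads per position in the homozygous, 1.73 in the heterozygous and 2.17 in the wild-type library. Among 12 beta cell markers, 8 had a gene-end peak in all libraries, including Ins1, Ins2 and Iapp. Pdx1 had one in the homozygous and the wild-type library, and Slc2a2 in the heterozygous library. Peaks of the marker genes covered 20001 bp in the homozygous, 9678 bp in the heterozygous and 18618 bp in the wild-type library. G6pc2 and Ucn3, genes of mature beta cells, had none in any library. Markers of delta and PP, acinar, duct and fibroblast cells had no gene-end peak in any library. Of 4 immune and endothelial markers, Cd68 had one in each library and the others had none. Of 5 alpha cell markers, Gcg and Ttr had one in the homozygous library, none had one in the heterozygous library, and Irx1 had one in the wild-type library. Arid1a itself carried 1046 bp of gene-end peak in the homozygous, 828 bp in the heterozygous and 751 bp in the wild-type library, which does not check the knockout, since acetylation at a promoter does not measure the protein.

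Nearly all oxidative phosphorylation genes carried H3K27ac in every genotype. A gene-end peak, meaning a peak with at least 1 bp within 1 kb of either end of the gene, was present at 87 of 96 members (90.6%) in the homozygous, 86 (89.6%) in the heterozygous and 86 (89.6%) in the wild-type library. Over all protein-coding genes the shares were 49.1% in the homozygous, 48.8% in the heterozygous and 52.1% in the wild-type library. The 84 ribosomal protein genes, another widely expressed set, were at 91.7% in the homozygous, 91.7% in the heterozygous and 94.0% in the wild-type library. All 3 libraries had a peak at 85 members, 88.5%, against 45.8% of all genes. The authors' fold enrichment of the strongest gene-end peak was above the list's median peak at 81 of 87 members with a peak in the homozygous, 80 of 86 in the heterozygous and 81 of 86 in the wild-type library, or 93.1% of members in the homozygous, 93.0% in the heterozygous and 94.2% in the wild-type list. Among all genes with a gene-end peak the shares were 86.4% in the homozygous, 86.8% in the heterozygous and 87.2% in the wild-type list. The fold enrichment is the authors' own value and is compared within a list only.

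Complexes II, III and V and the complex I assembly factors were marked at every gene in every library. This covered the 4 succinate dehydrogenase genes, the 8 Uqcr genes, the 17 Atp5 genes and the 8 Ndufaf genes. Of the 34 accessory complex I genes, 34 had a gene-end peak in the homozygous, 33 in the heterozygous and 33 in the wild-type library. Of the 7 core complex I genes, 6 had one in each library. Complex IV stood apart, with 10 of 18 genes marked in each library.

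**Figure D1:**
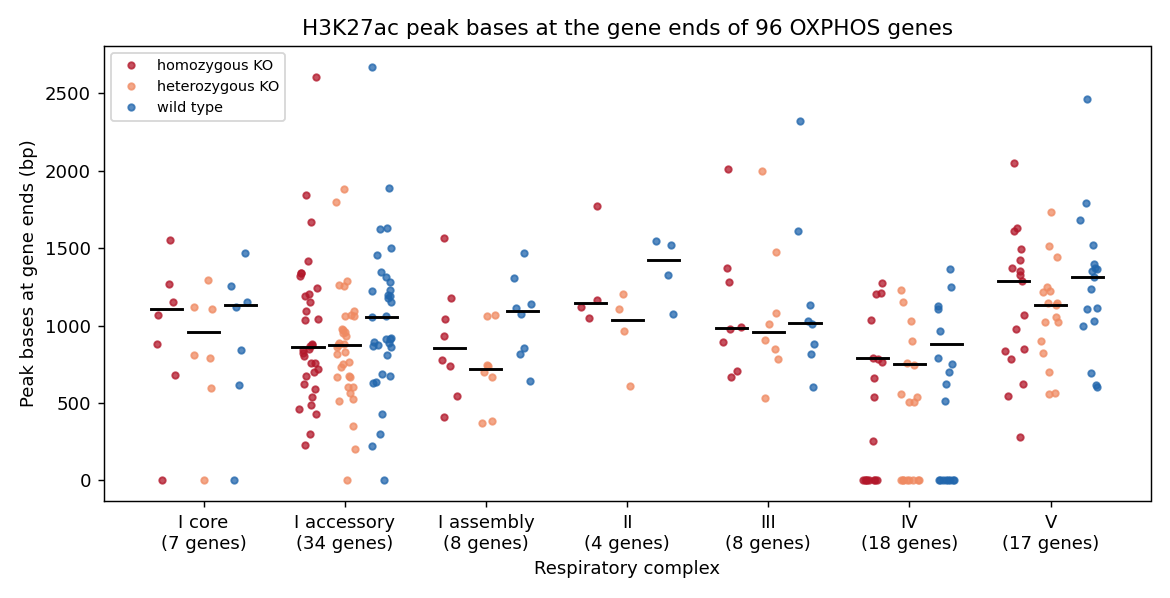
Bases covered by gene-end H3K27ac peaks (y axis, bp) for each of the 96 genes, grouped by respiratory complex (x axis) and coloured by genotype; each point is 1 gene in 1 library, and black bars are medians over genes with a peak. The points at 0 lie mostly in complex IV, where 8 of 18 genes had no gene-end peak in each library.

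The unmarked complex IV genes were mainly isoforms used in other tissues. Cytochrome c oxidase has subunits encoded by paired genes, of which one is widely expressed and the other is restricted to heart and skeletal muscle, lung or testis. Cox4i2, the lung isoform, Cox6a2 and Cox8b, the muscle isoforms, and Cox7b2 and Cox8c, the testis isoforms, had no peak inside the gene or within 1 kb of it in any library. Their widely expressed partners were marked in all libraries. Cox4i1 was covered by 1205 bp of peak in the homozygous, 1155 bp in the heterozygous and 1250 bp in the wild-type library. Cox6a1 was covered by 1210 bp in the homozygous, 900 bp in the heterozygous and 1126 bp in the wild-type library. Cox8a was covered by 767 bp in the homozygous, 539 bp in the heterozygous and 794 bp in the wild-type library, and its peak was the narrowest in the heterozygous clone. Cox7b, on the X chromosome, was covered by 542 bp in the homozygous, 508 bp in the heterozygous and 511 bp in the wild-type library, a near-equal cover.

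The other isoform genes differed between the libraries. Cox7a1, the muscle isoform of subunit 7a, had a single peak of 255 bp in the homozygous library (chr7:30184360-30184614, authors' fold enrichment 4.5) and none in the heterozygous or the wild-type library. The −log10 q of this peak was 6.19, and the gain was lost with peaks at −log10 q of at least 10. Cox6b2, the testis isoform of subunit 6b, had no peak in the homozygous library, 507 bp in the heterozygous library and 624 bp in the wild-type library, at a fold enrichment of 5.67 in the heterozygous and 5.74 in the wild-type list. The −log10 q of its wild-type peak was 9.57, so that the filter at 10 leaves this peak out and ends the loss. Its widely expressed partner Cox6b1 was covered by 663 bp in the homozygous, 559 bp in the heterozygous and 700 bp in the wild-type library. Ndufa4l2, a hypoxia-inducible relative of Ndufa4, was marked in all 3 libraries. Its peaks in the gene or within 1 kb covered 1558 bp in the homozygous, 2055 bp in the heterozygous and 2034 bp in the wild-type library. Its gene-end peaks alone covered 485 bp in the homozygous, 935 bp in the heterozygous and 863 bp in the wild-type library. By that measure Ndufa4l2 was past 1.5-fold lower in the homozygous library. The log2 ratio was −0.83 to wild type and −0.95 to the heterozygous library. Ndufa4, named for complex I but now placed in complex IV, was covered by 883 bp in the homozygous, 863 bp in the heterozygous and 893 bp in the wild-type library.

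**Figure D2:**
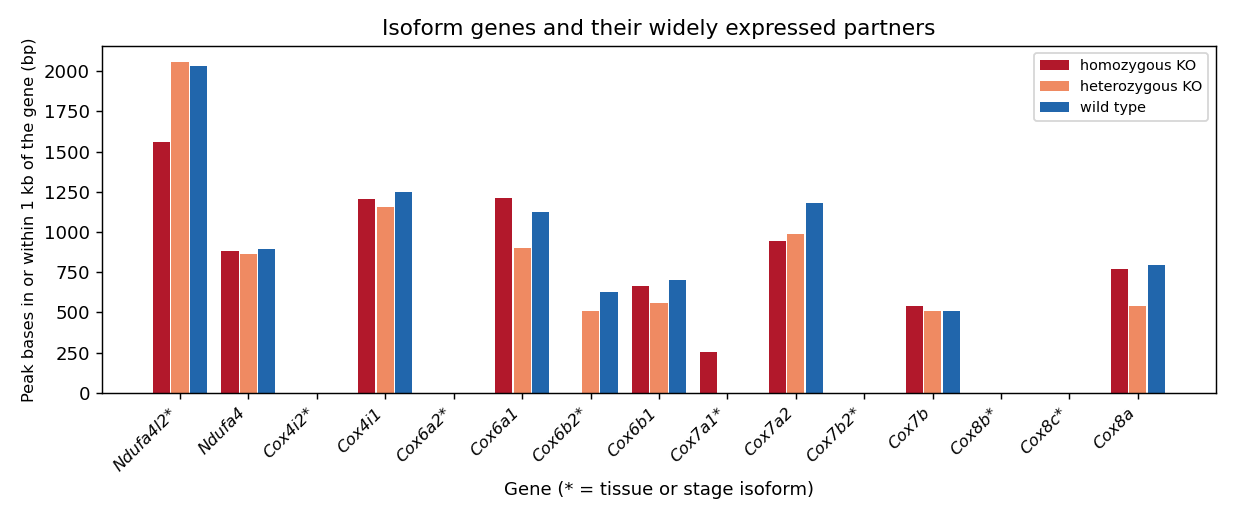
Bases of H3K27ac peak inside or within 1 kb of each isoform gene (y axis, bp, bars from 0), with tissue or stage isoforms marked by an asterisk next to their widely expressed partners (x axis); bar colours give the genotype and each bar is 1 library. Cox4i2, Cox6a2, Cox7b2, Cox8b and Cox8c are at 0 in all libraries, while Cox6b2 is at 0 in the homozygous library alone and Cox7a1 is above 0 in the homozygous library alone.

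Cox5a and Cox7a2, widely expressed complex IV genes, had no gene-end peak in any library but had peaks inside the gene. Cox5a, a matrix-facing subunit of complex IV, held 1823 bp in the homozygous, 968 bp in the heterozygous and 1785 bp in the wild-type library. Cox7a2, the widely expressed subunit 7a gene, held 941 bp in the homozygous, 987 bp in the heterozygous and 1181 bp in the wild-type library. The RefSeq start lay 3904 bp from the nearer end of the Cox5a span and 4612 bp from that of Cox7a2, so that their start peaks fell outside the gene-end window. Both genes were therefore marked, and the 5 isoform genes Cox4i2, Cox6a2, Cox7b2, Cox8b and Cox8c were the only members of the 96 with no peak in the gene or within 1 kb in any of the 3 libraries.

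Few members gained or lost a peak with Arid1a genotype. Between the homozygous knockout and wild type, 2 of the 10 members without a wild-type peak had one in the knockout, Ndufb4b and Cox7a1, where 2.94% of all genes without a wild-type peak had gained one. Of the 86 members with a wild-type peak, Cox6b2 alone had lost it, where 8.43% of all genes with a wild-type peak had lost theirs. Ndufb4b is a copy of the accessory subunit gene Ndufb4 and lies within the span of Dock8. Its peak covered 298 bp in the homozygous library (chr19:25033116-25033413), with a fold enrichment of 11.7 and 31 recovered reads at its summit, and no peak was called in the heterozygous or the wild-type library. Because Ndufb4, Ndufb4b and Ndufb4c are near-identical copies, reads could have been placed among them, and this gain is uncertain. Between the heterozygous knockout and wild type, 0 members gained and 0 lost a peak, where 2.56% of all genes had gained and 8.77% had lost one. The homozygous library against the heterozygous one gave the same Ndufb4b and Cox7a1 gains and the Cox6b2 loss, beside 5.65% gained and 5.19% lost over all genes.

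The covered bases per marked gene were higher in wild type than in both knockouts, as they were over all genes. The median member was covered by 978 bp in the homozygous, 899 bp in the heterozygous and 1109 bp in the wild-type library. Over all genes with a peak the medians were 1037 bp in the homozygous, 949 bp in the heterozygous and 1102 bp in the wild-type library. The widest single peak of a member had a median width of 764 bp in the homozygous, 666.5 bp in the heterozygous and 794 bp in the wild-type library. All members together held 88550 bp of gene-end peak in the homozygous, 79728 bp in the heterozygous and 96151 bp in the wild-type library. Of the 85 members with a peak in every library, 29 (34.1%) had most covered bases in the homozygous library. The counts were 6 (7.06%) in the heterozygous and 49 (57.6%) in the wild-type library. Of the 10017 genes with a peak in every library, the shares were 30.5% in the homozygous, 11.6% in the heterozygous and 57.7% in the wild-type library. Fewest covered bases were found in the homozygous library for 20, in the heterozygous for 56 and in the wild type for 9.

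Relative to wild type, homozygous loss left the covered bases of most members close to their wild-type value. The median log2 ratio over 85 members was −0.06, against −0.09 over all genes and −0.08 over the ribosomal protein genes. Covered bases were higher in the homozygous library at 32 members, lower at 52 and equal at 1. They were higher at 37.6% of members and 35.2% of all genes, and lower at 61.2% and 64.6%. At least 1.5-fold lower cover was found at 9 of the 85 members, 10.6%, where 10.8% of all genes were so, and at least 1.5-fold higher cover at 1, where 3.85% of all genes were. The share with lower cover was thus near the background. In the heterozygous library the ratio to wild type was lower. The median log2 ratio over 86 members was −0.21, against −0.21 over all genes and −0.17 over the ribosomal protein genes, and cover was lower at 74 members and higher at 12. Cover at least 1.5-fold lower was found at 8 of 86 members, 9.3%, beside 18% of all genes, and none was at least 1.5-fold higher, beside 2.05%. The lower count of members depended on the peaks kept. It was 14 with peaks at −log10 q of at least 10 and 12 with peaks of at least 250 bp. Over all genes the lower counts were then 1849 and 1893, against 1868 as reported.

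Both knockout comparisons share the wild-type library. Set directly against the heterozygous library, the homozygous library had higher cover at 62 members, 72.9%, and lower cover at 23, 27.1%. Over all genes 67.8% were higher and 32.0% lower. The median log2 ratio was 0.14 over members, against 0.12 over all genes and 0.09 over the ribosomal protein genes. Past 1.5-fold, 5 members were higher, 5.88%, beside 12.4% of all genes, and 4 were lower, 4.71%, beside 4.32%. The lowest recovered background was the same in these 2 libraries, and that of wild type was 1.25 times theirs. The median background was 7.12 reads per position in the homozygous, 6.72 in the heterozygous and 7.26 in the wild-type library, and the median summit pile-up of members was 122 reads in the homozygous, 75 in the heterozygous and 112 in the wild-type library. The part of depth, and of the lower cover of beta cell markers in the heterozygous clone, in these ratios was not tested.

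**Figure D3:**
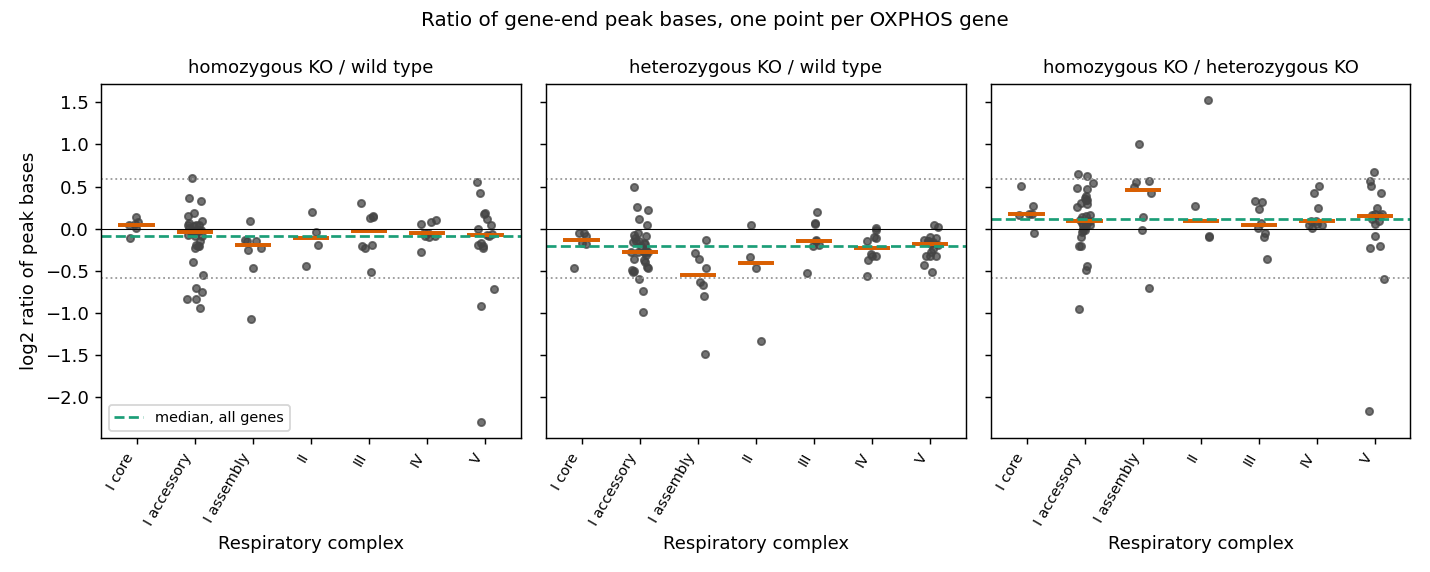
Log2 ratio of gene-end peak bases (y axis) for each oxidative phosphorylation gene with a peak in both libraries, by respiratory complex (x axis), in 3 panels: homozygous over wild type, heterozygous over wild type, and homozygous over heterozygous. Orange bars are medians per complex, the green dashed line is the median of all genes and the dotted lines mark 1.5-fold; the 8 assembly factor genes all lie below 0 in the heterozygous panel, and Atp5g3 is the lowest point in both homozygous panels.

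Among the groups of members, the 8 Ndufaf assembly factor genes of complex I had the lowest median ratio in the heterozygous library. Their proteins help build complex I and are not part of it once it is finished. All 8 had lower cover in the heterozygous library than in wild type, with a median log2 ratio of −0.55, and 4 were past 1.5-fold. Over all genes 80.8% were lower and 18% were past 1.5-fold lower. In the homozygous library 7 of the 8 were lower than wild type, with a median of −0.19 and 1 past 1.5-fold, beside 64.6% lower and 10.8% past 1.5-fold over all genes. Complex I assembly factors outside the symbol rule had mixed ratios for heterozygous over wild type. The log2 values were −0.54 at Ecsit, −0.44 at Acad9 and −0.09 at Tmem126b. Timmdc1 was at −0.01, Nubpl at 0.04 and Foxred1 at 0.07. The Ndufaf genes ranged from −1.48 at Ndufaf6 to −0.13 at Ndufaf1, so that Ecsit and Acad9 fell within their range and the others above it. Whether the low ratios go with the role in assembly was not tested. Ndufaf6 was covered by 777 bp in the homozygous, 386 bp in the heterozygous and 1077 bp in the wild-type library, a log2 ratio of −1.48 for heterozygous over wild type. At the end near base 11076237 of chromosome 4 the homozygous library had peaks of 267 and 510 bp, the heterozygous library one of 386 bp and the wild-type library peaks of 203 and 607 bp. The wild-type library also had a peak of 267 bp at the other end. The log2 ratio for heterozygous over wild type was −0.65 with peaks at −log10 q of at least 10, with lists of equal length and within 500 bp. Ndufaf4, which works with Ndufaf3, was covered by 547 bp in the homozygous, 368 bp in the heterozygous and 640 bp in the wild-type library. The single Ndufaf4 peak began near the start in all libraries, at chr4:24898075-24898621 in the homozygous, chr4:24898068-24898435 in the heterozygous and chr4:24898079-24898718 in the wild-type library, so that the libraries differed at its downstream edge.

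The remaining Ndufaf genes spanned a range of ratios. Ndufaf5, which modifies an arginine of the core subunit Ndufs7, was covered by 936 bp in the homozygous, 698 bp in the heterozygous and 1113 bp in the wild-type library. Ndufaf7, an arginine methyltransferase, was covered by 1042 bp in the homozygous, 737 bp in the heterozygous and 1141 bp in the wild-type library. Both were past 1.5-fold lower in the heterozygous library, with log2 ratios to wild type of −0.67 for Ndufaf5 and −0.63 for Ndufaf7. Ndufaf2 was the reverse case, with 410 bp in the homozygous, 667 bp in the heterozygous and 858 bp in the wild-type library. Its lowest cover was in the homozygous library, a log2 ratio of −1.07 to wild type, where a separate peak downstream of the start, 284 bp wide in the heterozygous and 378 bp in the wild-type library, was not called. Ndufaf3 had one of the 3 widest single peaks in wild type, with covered bases of 1567 bp in the homozygous, 1062 bp in the heterozygous and 1469 bp in the wild-type library. One unbroken peak covered it in the homozygous and the wild-type library, and 3 separate peaks did so in the heterozygous library.

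The core complex I subunits, which bind the flavin and the iron-sulfur clusters that carry electrons, differed little. Of the 6 with peaks, 5 had higher cover in the homozygous library than in wild type, with a median log2 ratio of 0.05. Over all genes 35.2% were higher, with a median of −0.09. All 6 had lower cover in the heterozygous library, with a median of −0.13. Over all genes 80.8% were lower, with a median of −0.21. None of the 6 was past 1.5-fold in any comparison. Against wild type, 10.8% of all genes were past 1.5-fold lower in the homozygous and 18% in the heterozygous library. Ndufs1, the largest iron-sulfur subunit, was covered by 1555 bp in the homozygous, 1294 bp in the heterozygous and 1467 bp in the wild-type library. Ndufv1, the flavin-binding subunit, was covered by 679 bp in the homozygous, 598 bp in the heterozygous and 618 bp in the wild-type library.

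Among the accessory subunits of complex I, 5 of 33 were past 1.5-fold lower and 1 was higher in the homozygous library against wild type, beside 10.8% and 3.85% of all genes. In the heterozygous library 3 of 33 were lower, beside 18% of all genes. Ndufs6, a zinc-binding accessory subunit, was the only member past 1.5-fold higher in the homozygous library, with 460 bp in the homozygous, 352 bp in the heterozygous and 303 bp in the wild-type library, and it was among the narrowest members in wild type. Ndufa6 was covered by 675 bp in the homozygous, 605 bp in the heterozygous and 1199 bp in the wild-type library, which places both knockouts below wild type. The main Ndufa6 peak was present in all libraries, and a second peak of 405 bp, upstream at chr15:82354503-82354907 with a fold enrichment of 3.43, was called in wild type alone. With peaks at −log10 q of at least 10, and with lists of equal length, that peak is left out and the log2 ratio for heterozygous over wild type was −0.39, against −0.99 with all peaks. Ndufa10 followed the same course, with 759 bp in the homozygous, 878 bp in the heterozygous and 1233 bp in the wild-type library. Its upstream peak was missing in the homozygous library, 252 bp wide in the heterozygous library and 544 bp wide in wild type. Ndufa1, a small membrane subunit encoded on the X chromosome, was lowest in the heterozygous library, with 1339 bp in the homozygous, 873 bp in the heterozygous and 1315 bp in the wild-type library.

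Some differences of accessory subunit genes came from the far end of the gene. Ndufa9, a subunit next to the quinone site, was covered by 849 bp in the homozygous, 979 bp in the heterozygous and 1630 bp in the wild-type library, with a log2 ratio to wild type of −0.94 in the homozygous and −0.74 in the heterozygous library. Within 1 kb of its RefSeq start the ratios to wild type were −0.13 in the homozygous and 0.08 in the heterozygous library, so that the start itself differed little. Ndufc2 behaved alike in the homozygous library, at −0.75 over the gene ends and −0.35 at the start. The member with most covered bases in wild type was Ndufb6, with 2602 bp in the homozygous, 1882 bp in the heterozygous and 2672 bp in the wild-type library. Its widest single peak lay at the end away from its start. That peak was 1784 bp in the homozygous, 1200 bp in the heterozygous and 1739 bp in the wild-type library. Around the start Ndufb6 had 818 bp in the homozygous, 682 bp in the heterozygous and 933 bp in the wild-type library. The narrowest members in wild type were Ndufb4c, with 228 bp in the homozygous, 206 bp in the heterozygous and 222 bp in the wild-type library, Ndufs6, and Ndufb10. Ndufb10 was covered by 430 bp in the homozygous, 604 bp in the heterozygous and 427 bp in the wild-type library, the highest heterozygous ratio to wild type of any member at a log2 value of 0.50.

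Complex II, which feeds electrons from succinate and is also a citric acid cycle enzyme, had its largest difference at Sdhc, a membrane anchor subunit. Sdhc was covered by 1771 bp in the homozygous, 613 bp in the heterozygous and 1545 bp in the wild-type library. The heterozygous library was thus lower than both others, with log2 ratios of −1.33 for heterozygous over wild type and 1.53 for homozygous over heterozygous. At the end near base 171150640 of chromosome 1 the wild-type library had one peak of 1189 bp, the homozygous library peaks of 697 and 285 bp, and the heterozygous library one peak of 613 bp. The other end held 2 further peaks in the homozygous library and one of 356 bp in wild type. The flavoprotein gene Sdha was covered by 1166 bp in the homozygous, 965 bp in the heterozygous and 1327 bp in the wild-type library. The iron-sulfur subunit gene Sdhb was covered by 1046 bp in the homozygous, 1104 bp in the heterozygous and 1075 bp in the wild-type library, nearly the same in all libraries.

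Complex III, which passes electrons to cytochrome c, had no member past 1.5-fold in any comparison. Over all genes 10.8% were past 1.5-fold lower and 3.85% higher in the homozygous library against wild type. In the heterozygous library these shares were 18% and 2.05%. Homozygous against heterozygous, 4.32% were lower and 12.4% higher. So few genes cannot set complex III apart from these shares. The median log2 ratio of its 8 genes was −0.03 for homozygous over wild type, −0.14 for heterozygous over wild type and 0.04 for homozygous over heterozygous. Uqcrfs1, the Rieske iron-sulfur protein, was covered by 707 bp in the homozygous, 908 bp in the heterozygous and 1009 bp in the wild-type library. Uqcrc1, a core structural protein, was covered by 666 bp in the homozygous, 533 bp in the heterozygous and 606 bp in the wild-type library. Uqcrh, the hinge protein, carried the widest single peak of any member in wild type. That peak was 2009 bp in the homozygous, 1999 bp in the heterozygous and 2319 bp in the wild-type library. Complex IV genes with a peak in both libraries had no member past 1.5-fold either, beside the same shares of all genes. Homozygous cover was higher than heterozygous cover at 9 of 9 of these complex IV genes, with a median log2 ratio of 0.09. Over all genes 67.8% were higher, with a median of 0.12.

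ATP synthase, which turns the proton gradient into ATP, had a median log2 ratio of −0.07 in the homozygous and −0.18 in the heterozygous library against wild type. The catalytic head differed little. The alpha subunit gene Atp5a1 was covered by 1326 bp in the homozygous, 1223 bp in the heterozygous and 1398 bp in the wild-type library. The beta subunit gene Atp5b was covered by 1612 bp in the homozygous, 1511 bp in the heterozygous and 1683 bp in the wild-type library. The gamma subunit gene Atp5c1, whose product is the rotating stalk, was covered by 1069 bp in the homozygous, 1022 bp in the heterozygous and 1234 bp in the wild-type library.

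The lowest ratio of any member was at Atp5g3, one of 3 genes that encode the c subunit of the rotor ring. Atp5g3 was covered at its gene ends by 279 bp in the homozygous, 1251 bp in the heterozygous and 1368 bp in the wild-type library, a log2 ratio of −2.29 for homozygous over wild type. That value turned on how the peak was divided. In the heterozygous and the wild-type library one peak crossed the start, at chr2:73910461-73911711 in the heterozygous and chr2:73910479-73911846 in the wild-type library. In the homozygous library the same stretch held 2 peaks, chr2:73910514-73911324 with a fold enrichment of 13.4 and chr2:73911427-73911705 with one of 4.98, and only the second reached the gene-end window, because the RefSeq start lies 1138 bp inside the gene span. Counted within 1 kb of the start, Atp5g3 had 1090 bp in the homozygous, 1251 bp in the heterozygous and 1368 bp in the wild-type library, a log2 ratio of −0.33 for homozygous over wild type. Atp5d, the delta subunit gene, was also lower in the homozygous library by gene ends, with 544 bp in the homozygous, 822 bp in the heterozygous and 1028 bp in the wild-type library. Around its start, 3553 bp from the nearer end of the span, Atp5d had 1084 bp in the homozygous, 826 bp in the heterozygous and 902 bp in the wild-type library, and the log2 ratio for homozygous over wild type was 0.27, in the other direction.

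Atp5j, which encodes coupling factor 6 of the stator stalk, was covered by 1633 bp in the homozygous, 1024 bp in the heterozygous and 1105 bp in the wild-type library. That difference depended on the window. Around the start, Atp5j had 1633 bp in the homozygous, 1417 bp in the heterozygous and 1539 bp in the wild-type library, a log2 ratio of 0.09 for homozygous over wild type. The gene span of Atp5j overlaps that of Gabpa, which encodes a subunit of the GABP factor that binds promoters of many respiratory genes. Gabpa was covered by the same 1633 bp in the homozygous library, by 1417 bp in the heterozygous and by 1539 bp in the wild-type library, so that these peaks cannot be assigned to one of these genes.

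The RefSeq promoter table gave a transcription start for 78 of the 96 members, and peaks were placed relative to it. A peak lay within 1 kb of the start at 75 of 78 members in the homozygous, 74 in the heterozygous and 74 in the wild-type library. For all 17491 genes with a listed start the shares were 49.9% in the homozygous, 49.8% in the heterozygous and 52.7% in the wild-type library. For the 73 members with such a peak in every library, the summit lay downstream of the start at 59 (80.8%) in the homozygous, 55 (75.3%) in the heterozygous and 59 (80.8%) in the wild-type library. Over all genes this was so for 72.3% in the homozygous, 70.9% in the heterozygous and 72.0% in the wild-type library. The median summit was 158 bp downstream in the homozygous, 164 bp in the heterozygous and 177 bp in the wild-type library.

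The edges of these peaks differed between genotypes in different ways upstream and downstream of the start. Upstream, peaks reached a median of 441 bp in the homozygous, 477 bp in the heterozygous and 520 bp in the wild-type library. Over all genes the upstream reach was 492 bp in the homozygous, 471 bp in the heterozygous and 540 bp in the wild-type library. For the ribosomal protein genes it was 400 bp in the homozygous, 454 bp in the heterozygous and 478.5 bp in the wild-type library. Downstream, peaks of members reached 687 bp in the homozygous, 563 bp in the heterozygous and 631 bp in the wild-type library. Over all genes the downstream reach was 674 bp in the homozygous, 614 bp in the heterozygous and 703 bp in the wild-type library. Gene by gene, the median downstream reach of members was 11 bp longer in the homozygous library than in wild type, whereas over all genes the median difference was −25 bp and over the ribosomal protein genes 49 bp. Against the heterozygous library, the homozygous peak reached further downstream at 61 members and less far at 12. It did so at 50 of 60 ribosomal protein genes, with 10 less far, and at 5382 of all 8237 genes, with 2658 less far. At 800 bp into the gene, a peak was present at 15 of the 73 members (20.5%) in the homozygous, 3 (4.11%) in the heterozygous and 11 (15.1%) in the wild-type library. Over all genes the shares there were 31.7% in the homozygous, 23.1% in the heterozygous and 35.4% in the wild-type library.

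The start itself was more often free of peak in the knockouts. A single peak spanned the start at 47 of 73 members (64.4%) in the homozygous, 47 (64.4%) in the heterozygous and 54 (74.0%) in the wild-type library. Over all genes the shares were 55.9% in the homozygous, 52.8% in the heterozygous and 57.7% in the wild-type library. The start was uncovered in the homozygous library but covered in wild type at 8 members, and the reverse held at 1. For the heterozygous library the counts were 9 and 2. Over all genes they were 720 and 571 for the homozygous library, and 878 and 474 for the heterozygous library. An uncovered start means only that no called peak spanned it.

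**Figure D4:**
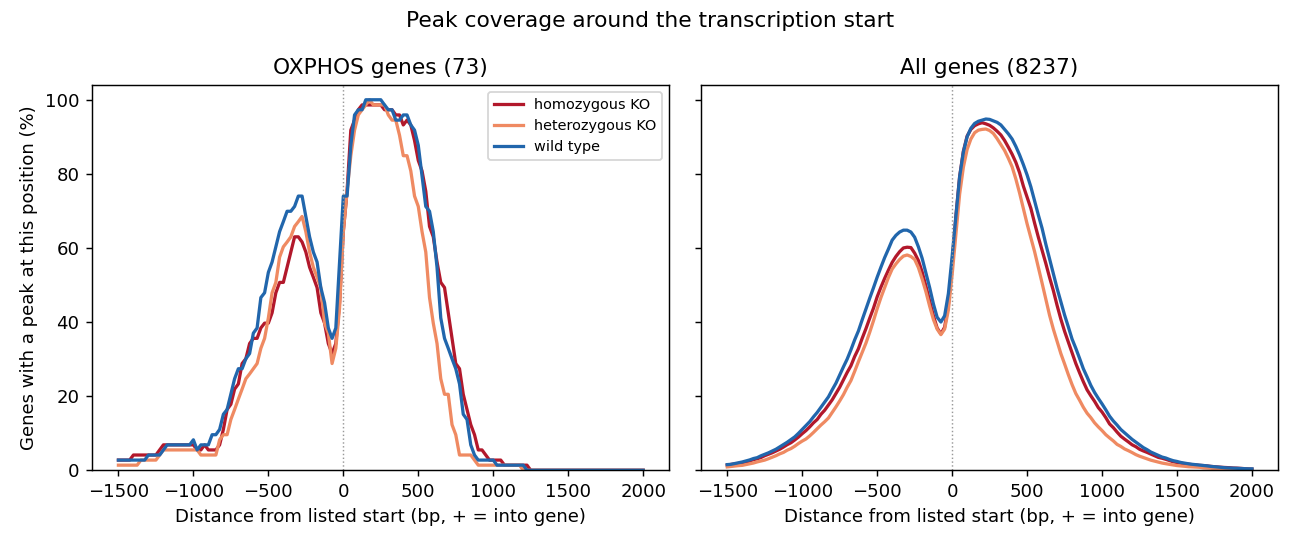
Percentage of genes with an H3K27ac peak (y axis) at each distance from the RefSeq start (x axis, bp, positive into the gene), for 73 oxidative phosphorylation genes and for all 8237 genes with a start peak in every library; line colours give the genotype. Both panels dip just upstream of the start, and among the oxidative phosphorylation genes the heterozygous line lies lowest downstream, at 71.2% of genes at 500 bp against 87.7% in wild type, with the homozygous line at 83.6%.

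Around the starts, fewer members differed by 1.5-fold. Of 73 members, 3 were lower and 1 was higher in the homozygous library than in wild type, 4.11% and 1.37%, beside 8.73% and 2.51% of all genes. In the heterozygous library 5 were lower and 0 higher than wild type, 6.85% and 0%, beside 15.6% and 1.18% of all genes. The 3 lower in the homozygous library were Ndufa6, Ndufa10 and Ndufaf2, and the 1 higher was Ndufs6.

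The members' starts often faced the start of another gene. At 22 of the 78 members, 28.2%, a gene on the opposite strand had its start within 1 kb upstream, where 8.24% of all genes and 12.5% of the ribosomal protein genes did. Examples are Ndufa7, a complex I accessory subunit 10 bp from Rps28, Ndufs3, a core subunit 19 bp from Kbtbd4, and Sdhd, a complex II anchor 52 bp from Timm8b. Where there was such a partner, peaks reached a median of 652 bp upstream in the homozygous, 632.5 bp in the heterozygous and 714.5 bp in the wild-type library. Without a partner the upstream reach was 370 bp in the homozygous, 432 bp in the heterozygous and 463 bp in the wild-type library. The same held over all genes. With a partner their reach was 754.5 bp in the homozygous, 692 bp in the heterozygous and 780.5 bp in the wild-type library. Without one it was 435 bp in the homozygous, 420 bp in the heterozygous and 485 bp in the wild-type library. Peaks at these 22 members cannot be assigned to the member alone.

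Promoters of respiratory genes are known as targets of NRF1, GABP, YY1 and the ERR nuclear receptors, and their motifs were sought as exact letters on both strands in the 300 bases from 250 before to 50 after each start. The NRF1 palindrome was found in 7 of 78 members, 8.97%, against 1.32% of all promoters and 1.56% of those of ribosomal protein genes. These 7 were Atp5g2, Atp5k, Cox6a1, Ndufa11, Ndufaf4, Ndufaf5 and Uqcrc1. The ETS and GABP motif CCGGAAG was found in 23.1% of members and 11.9% of all promoters, the YY1 motif in 6.41% and 1.27%, and the ERR site AAGGTCA in 10.3% and 4.08%. The CREB and ATF motif TGACGTCA was found in 5.13% of members and 2.34% of all promoters. Among ribosomal protein genes the shares were 39.1% for CCGGAAG, 4.69% for the YY1 motif, 6.25% for AAGGTCA and 7.81% for TGACGTCA. The YY1 share rests on 5 members, the TGACGTCA share on 4 and the AAGGTCA share on 8. The general promoter motifs were at like shares, with GGGCGG of the SP and KLF factors in 44.9% of members and 46.3% of all promoters, CCAAT of NF-Y in 43.6% and 39.0%, and TATAAA in 10.3% and 13.3%. Median GC content of the promoters was 58.5% for members and 56.3% for all genes (57.0% for the ribosomal protein genes). A match describes the letters and does not show binding.

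**Figure D5:**
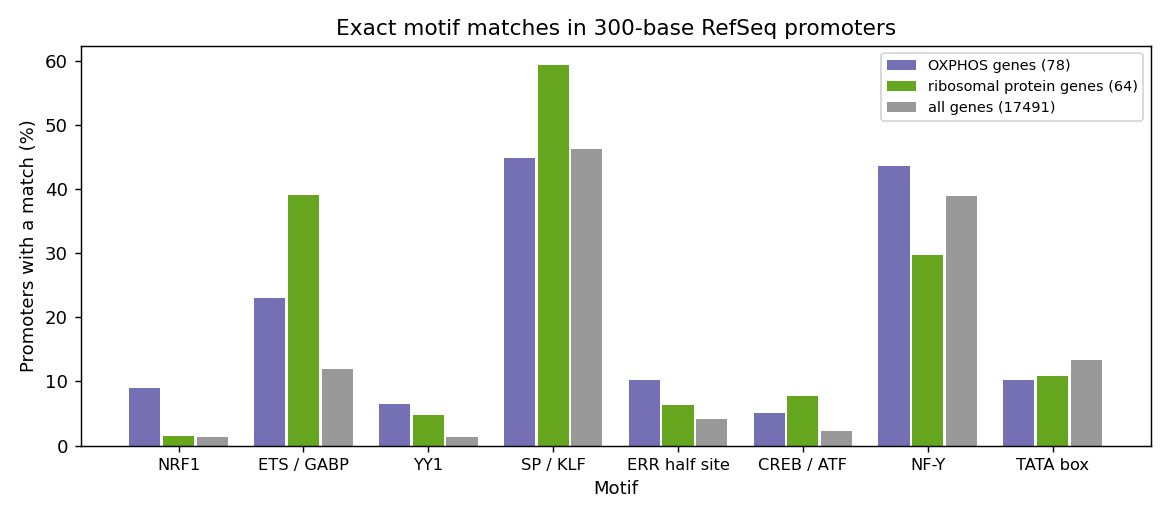
Percentage of 300-base RefSeq promoters that hold an exact match to each motif on either strand (y axis, bars from 0) for 78 oxidative phosphorylation genes, 64 ribosomal protein genes and 17491 genes in all (x axis, motif names). The NRF1 bar is at 8.97% for oxidative phosphorylation genes and 1.32% for all genes, while the ETS and GABP bar is highest for the ribosomal protein genes at 39.1%.

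The following promoters, from RefSeq on GRCm38.p6, show 3 members with the NRF1 palindrome, Atp5g3 with its divided homozygous peak, and the marked and unmarked isoforms Cox8a and Cox8b. Each is the 250 bases before the start, read 5′ to 3′ on the gene's strand, with matches to the motifs above in capitals. Matches in the 50 bases after the start, or crossing it, were counted above but are not in these stretches. Cox6a1 is at chr5:115348959-115349208 on the minus strand, Ndufaf4 at chr4:24897833-24898082 on the plus strand, Atp5g2 at chr15:102671048-102671297 on the minus strand, Atp5g3 at chr2:73911327-73911576 on the minus strand, Cox8a at chr19:7217617-7217866 on the minus strand, and Cox8b at chr7:140900447-140900696 on the minus strand.
Cox6a1: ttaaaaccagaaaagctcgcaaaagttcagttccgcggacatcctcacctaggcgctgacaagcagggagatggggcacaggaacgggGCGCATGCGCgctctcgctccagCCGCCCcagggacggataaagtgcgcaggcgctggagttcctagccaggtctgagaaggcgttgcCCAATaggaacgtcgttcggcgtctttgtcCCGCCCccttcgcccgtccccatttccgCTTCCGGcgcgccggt
Ndufaf4: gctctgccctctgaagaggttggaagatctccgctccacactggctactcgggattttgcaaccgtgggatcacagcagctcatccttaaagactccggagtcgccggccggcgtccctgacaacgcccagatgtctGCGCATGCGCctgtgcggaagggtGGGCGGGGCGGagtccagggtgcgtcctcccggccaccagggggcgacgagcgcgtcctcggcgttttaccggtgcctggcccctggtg
Atp5g2: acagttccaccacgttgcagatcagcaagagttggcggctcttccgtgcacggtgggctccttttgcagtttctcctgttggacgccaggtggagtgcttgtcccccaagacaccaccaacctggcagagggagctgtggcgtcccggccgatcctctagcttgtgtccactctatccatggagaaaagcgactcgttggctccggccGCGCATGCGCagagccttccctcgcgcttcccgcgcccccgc
Atp5g3: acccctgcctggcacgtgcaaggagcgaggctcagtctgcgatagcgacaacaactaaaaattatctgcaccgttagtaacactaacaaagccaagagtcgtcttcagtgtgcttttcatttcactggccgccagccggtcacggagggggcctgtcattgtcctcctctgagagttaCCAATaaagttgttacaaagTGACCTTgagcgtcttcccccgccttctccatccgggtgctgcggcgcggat
Cox8a: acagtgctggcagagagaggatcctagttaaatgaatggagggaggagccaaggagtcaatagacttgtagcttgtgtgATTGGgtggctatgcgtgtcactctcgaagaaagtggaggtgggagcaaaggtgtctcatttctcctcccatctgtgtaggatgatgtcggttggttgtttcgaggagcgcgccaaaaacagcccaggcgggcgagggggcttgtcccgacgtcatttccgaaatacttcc
Cox8b: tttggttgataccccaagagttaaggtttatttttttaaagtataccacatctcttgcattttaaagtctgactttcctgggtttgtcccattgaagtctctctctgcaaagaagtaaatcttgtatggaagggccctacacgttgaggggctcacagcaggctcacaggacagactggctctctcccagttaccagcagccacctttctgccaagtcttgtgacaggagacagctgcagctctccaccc

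The Cox6a1, Ndufaf4 and Atp5g2 sequences each hold the NRF1 palindrome, and Cox6a1 also holds GGGCGG and CCGGAAG on the reverse strand and a forward CCAAT. These 3 genes were marked in every library. Atp5g2, another c subunit gene, was covered by 2047 bp in the homozygous, 1442 bp in the heterozygous and 1794 bp in the wild-type library. The Atp5g3 sequence holds CCAAT and, on the reverse strand, AAGGTCA. It falls on the stretch where the homozygous library had its gap and its second, lower peak. The Cox8a sequence, in a gene marked in every library, holds a reverse-strand CCAAT. Cox8a also has CCGGAAG across its start and again after it. The printed Cox8b sequence, in a gene with no peak in any library, holds none of the motifs, and a TATAAA lies after its start.

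Genes of the same pathway outside the symbol rule gave a similar picture. A list of 44 assembly factors and carriers held cytochrome c (Cycs) and assembly factors of complexes I to V. Of these, 42 had a gene-end peak in the homozygous, 43 in the heterozygous and 43 in the wild-type library. The shares of all genes were 49.1% in the homozygous, 48.8% in the heterozygous and 52.1% in the wild-type library. In the homozygous library 2 of 42 were past 1.5-fold higher than wild type and 4 lower, beside 3.85% and 10.8% of all genes, with a median log2 ratio of −0.10. In the heterozygous library 0 of 43 were higher and 3 lower, beside 2.05% and 18% of all genes, with a median of −0.16. Cox14, which helps translate and assemble the Cox1 subunit, was covered by 2585 bp in the homozygous, 1105 bp in the heterozygous and 1258 bp in the wild-type library. Cox19, a copper-handling assembly factor, was covered by 1056 bp in the homozygous, 809 bp in the heterozygous and 1752 bp in the wild-type library. Higd1a, a hypoxia-inducible inner membrane protein, had no gene-end peak in the homozygous library, 1173 bp in the heterozygous and 1371 bp in the wild-type library.

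Of 20 genes of the citric acid cycle and pyruvate entry, 19 had a gene-end peak in the homozygous, 19 in the heterozygous and 20 in the wild-type library. None was past 1.5-fold in the homozygous library against wild type, beside 3.85% of all genes higher and 10.8% lower. In the heterozygous library 1 was lower and none was higher, beside 18% and 2.05%. Of 16 regulators of mitochondrial gene expression and biogenesis, 14 had a gene-end peak in the homozygous, 12 in the heterozygous and 13 in the wild-type library. For both lists, the all-gene shares with a peak were 49.1% in the homozygous, 48.8% in the heterozygous and 52.1% in the wild-type library. Ppargc1a, a coactivator that induces respiratory genes, was covered by 534 bp in the homozygous library, had no gene-end peak in the heterozygous library and was covered by 831 bp in the wild-type library. Nrf1 was nearly equal, with 1690 bp in the homozygous, 1739 bp in the heterozygous and 1803 bp in the wild-type library. Yy1 was covered by 2730 bp in the homozygous, 2391 bp in the heterozygous and 1665 bp in the wild-type library, a log2 ratio of 0.71 for homozygous over wild type. Polrmt, the mitochondrial RNA polymerase, was covered by 637 bp in the homozygous, 257 bp in the heterozygous and 367 bp in the wild-type library.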

How the data were processed

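H3K27ac ChIP-seq of 3 MIN6 clones was analysed from 1 peak list per genotype, and the genotype of each list rests on the labels. The authors called peaks with MACS2 on mm10 after bcl2fastq, per the submitters' processing notes. The sources used here do not state versions, aligner, control, threshold or read totals. For each peak the deposited lists hold a score, a fold enrichment over local background (a ratio), −log10 p, −log10 q and a summit. Wild-type peak names hold the tag GAL4, which no label explains. Because the deposited −log10 q grows with depth, fold and −log10 q were used within a list only.

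Pile-ups and backgrounds were solved from fold enrichment and −log10 p (to within 0.001) for 34297 homozygous, 31363 heterozygous and 41489 wild-type peaks. The lowest background served as relative depth, which assumes that it follows the reads used.

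Gene spans came from the RefSeq table of GRCm38.p6, the assembly of mm10, without strand or exons. Peaks with at least 1 bp within 1 kb of either end were taken whole. Covered bases are the sum of their widths, and a change means at least 1.5-fold. Starts came from the RefSeq promoter table, matched by gene ID for 78 members, with the first listed of several used for 5. No peak was shared by 2 members. The values of 1 member are not reported here. With 1 library per genotype no test was made. Presence calls did not differ from those of bedtools 2.31.1 (0 differences), and the counting was tested on simulated peaks. Python 3.11.15, numpy 2.4.6, pandas 2.3.3, scipy 1.17.1 and matplotlib 3.10.9 were used.

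Genes named were those gained or lost, the 5 highest and 5 lowest ratios per comparison, members without a peak, the 3 widest and 3 narrowest, core subunits, isoform genes with their partners, and genes gained, lost or past 1.5-fold in the other lists (at most 5 per direction). Atp5g2, Atp5l, Ndufa7, Ndufa10, Ndufaf5, Ndufaf7, Ndufc2, Ndufs3, Sdhd, Nrf1, Gabpa and Cycs were named after their values were seen. Members, lists and tests were chosen with earlier results of these data known. Alternatives were 7: −log10 q of at least 10, equal list length, windows of 500 bp and 2 kb, the 78 starts only, 100 bp of overlap, and peaks of at least 250 bp.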

Additional observations from a re-analysis of the deposited data

How the results depend on the processing

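Each of 168 summary results under the 7 alternatives was set beside its value as reported, and 142 stayed near it, meaning within 1.5 times for counts and sums and within the 95% order interval over genes for medians. Presence, total covered bases, median width and the median ratios of members did so under all 7. The 26 that moved were counts of few genes. With peaks at −log10 q of at least 10, homozygous against wild type had 1 gained, 2 higher and 5 lower members, heterozygous against wild type 1 gained, 1 lost and 14 lower, and homozygous against heterozygous 2 lost. Over all genes, the count lower for heterozygous against wild type was 1849 there, against 1868 as reported. With each list cut to its 31365 strongest peaks, homozygous against wild type had 1 gained, 2 higher and 5 lower, heterozygous against wild type 1 gained and 1 higher, and homozygous against heterozygous 1 gained and 2 lost. Within 500 bp, homozygous against wild type had 2 lost, 2 higher and 5 lower, and homozygous against heterozygous 2 lost and 2 lower. Within 2 kb, homozygous against heterozygous had 3 higher. Around starts only, homozygous against wild type had 3 lower, heterozygous against wild type 5 lower, and homozygous against heterozygous 2 higher and 1 lower. Requiring 100 bp of overlap or 250 bp of width gave 2 higher for homozygous against wild type.

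Of 214 other values (named genes, and medians over all genes), 186 stayed, 23 moved and 5 reversed. The log2 ratio of Ndufa9, heterozygous over wild type, was 0.08 within 500 bp and 0.08 around the start, because the far-end wild-type peak is then left out. Atp5d, homozygous over heterozygous, was 0.25 within 2 kb and 0.39 around the start, and homozygous over wild type 0.27 around the start. Values that were not past 1.5-fold and turned sign were Uqcrb at −0.30 for heterozygous over wild type with −log10 q of at least 10, Ndufb10 at 0.30 for homozygous over heterozygous within 2 kb, and Ndufb8 within 2 kb at −0.40 for homozygous and −0.47 for heterozygous over wild type. The cause of the other changes was not tested. No paired analysis was possible because each genotype has 1 library. Without replicates, differences between clones and between genotypes cannot be told apart, and a peak missing from a list may lie under the caller's threshold.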

Other observations

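Further members stood at the upper end of the ratios to wild type without passing 1.5-fold. Atp5k, subunit e of ATP synthase, was covered by 834 bp in the homozygous, 560 bp in the heterozygous and 618 bp in the wild-type library. Ndufv3, a small accessory subunit next to the flavin-binding end of complex I, was covered by 1190 bp in the homozygous, 818 bp in the heterozygous and 922 bp in the wild-type library. Ndufb8, an accessory membrane-arm subunit, was covered by 869 bp in the homozygous, 828 bp in the heterozygous and 690 bp in the wild-type library, so that both knockouts were above wild type, although within 2 kb both were below it. Uqcrb, a complex III subunit, was covered by 975 bp in the homozygous, 1011 bp in the heterozygous and 878 bp in the wild-type library, and with peaks at −log10 q of at least 10 its log2 ratio for heterozygous over wild type was −0.30. At the lower end instead was Atp5l, subunit g of ATP synthase, with 1493 bp in the homozygous, 1731 bp in the heterozygous and 2464 bp in the wild-type library. Its log2 ratio for homozygous over wild type was −0.72, past 1.5-fold lower, while around its start that ratio was 0.05.

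Among assembly factors outside the symbol rule, those of succinate dehydrogenase went different ways. Sdhaf1, which matures its iron-sulfur subunit, was covered by 1375 bp in the homozygous, 971 bp in the heterozygous and 792 bp in the wild-type library. Sdhaf2, which attaches the flavin, was covered by 1379 bp in the homozygous, 1455 bp in the heterozygous and 2168 bp in the wild-type library. Sdhaf4 was covered by 823 bp in the homozygous, 545 bp in the heterozygous and 1008 bp in the wild-type library. Atpaf1, an ATP synthase assembly factor, was covered by 1083 bp in the homozygous, 874 bp in the heterozygous and 1632 bp in the wild-type library. Acad9, a complex I assembly factor, had 522 bp in the homozygous, 612 bp in the heterozygous and 832 bp in the wild-type library. Cyc1, the cytochrome c1 gene of complex III, had 1467 bp in the homozygous, 953 bp in the heterozygous and 1423 bp in the wild-type library. Idh2, the mitochondrial NADP isocitrate dehydrogenase, had no gene-end peak in the homozygous or the heterozygous library and one of 276 bp in the wild-type library. Suclg2, a succinyl-CoA ligase subunit, had 506 bp in the homozygous, 442 bp in the heterozygous and 695 bp in the wild-type library. Polg, the mitochondrial DNA polymerase, had one of 276 bp in the homozygous library and none in the heterozygous or the wild-type library. Pprc1, a relative of Ppargc1a, had 860 bp in the homozygous, 1088 bp in the heterozygous and 578 bp in the wild-type library. Ppargc1b, another relative, had 963 bp in the homozygous, 693 bp in the heterozygous and 1121 bp in the wild-type library.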
